A study of Mus musculus with 19 samples.

Results

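Mitochondrial ribosomal proteins were followed here as the genes whose symbol begins with Mrps or Mrpl and a number, which gave 74 of the 14996 genes in the deposited table, 28 of the small subunit (Mrps) and 46 of the large subunit (Mrpl). The study fed APP23 mice, a model of Alzheimer's disease, a high fat diet (HFD, 40% of calories from fat) or a normal diet (ND) for 3 months from a mean age of 11.7 months, and RNA of the cortex was sequenced. Each of the 19 libraries came from 1 mouse, and there were 6 females and 4 males on ND beside 5 females and 4 males on HFD. All mice were hemizygous for a human APP751 transgene with the Swedish mutation on a C57BL/6 background, so no group without the transgene entered. The questions were whether the diet moved the mRNA of these genes, whether it did so alike in females and males, and whether the sexes differed.

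The mitochondrial ribosome translates the few proteins encoded by mitochondrial DNA, all of them core parts of the respiratory chain and ATP synthase. Its RNA is made inside the organelle, but all of its proteins are encoded in the nucleus, translated in the cytosol and imported. Part of them have counterparts in the bacterial ribosome, and the rest were added in the mitochondrial lineage. By structure the products of Mrps30 and Mrps18a sit in the large subunit, and here both stayed where their symbols place them.

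The members were spread over 17 chromosomes. Sequence elements that the choice by symbol did not use were more frequent in their promoters than in those of the genes of the table. RefSeq windows of 300 bases, from 250 before to 50 after a start site, were at hand for 65 of the 74 members (71 windows, build GRCm38.p6, while the authors' counts were made on mm9). Searched on both strands, the core ETS element CCGGAAG, the motif of the GABP factor, was in 35.2% of the members' windows against 15.1% for the genes of the table and 8.86% of all windows. The element GCGCANGCG of NRF1, an activator of nuclear genes for mitochondria, was in 22.5%, 11.9% and 6.25%, and AAGATGG of YY1 in 16.9%, 6.61% and 6.34%. At least 1 of the 3 was in 59.2% of the members' windows, 29.2% for genes of the table and 19.2% of all windows. The members' windows also held more G and C, with a median of 58.7% against 52.7% over all windows. A match describes the letters only, and factor binding was not measured. The promoters of the 5 members on which the comparisons turned are shown 5' to 3' on the strand of the gene, with matches to the 3 elements in capitals. The windows are Mrps12 at chr7:28741772-28742071 (minus strand), Mrpl18 at chr17:12916042-12916341 (minus), Mrpl52 at chr14:54426659-54426958 (plus), Mrpl53 at chr6:83108858-83109157 (plus) and Mrpl40 at chr16:18876588-18876887 (minus).
Mrps12: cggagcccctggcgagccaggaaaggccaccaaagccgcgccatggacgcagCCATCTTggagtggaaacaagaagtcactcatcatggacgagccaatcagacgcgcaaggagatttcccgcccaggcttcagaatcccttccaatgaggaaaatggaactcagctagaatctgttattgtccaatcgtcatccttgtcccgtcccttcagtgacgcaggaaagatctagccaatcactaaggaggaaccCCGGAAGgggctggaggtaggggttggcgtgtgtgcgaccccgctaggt
Mrpl18: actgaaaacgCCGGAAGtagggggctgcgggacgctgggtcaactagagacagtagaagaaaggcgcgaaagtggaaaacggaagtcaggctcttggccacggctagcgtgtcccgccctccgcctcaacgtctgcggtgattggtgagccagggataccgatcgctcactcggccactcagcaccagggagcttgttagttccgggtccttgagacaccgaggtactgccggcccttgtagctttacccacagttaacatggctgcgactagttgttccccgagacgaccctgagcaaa
Mrpl52: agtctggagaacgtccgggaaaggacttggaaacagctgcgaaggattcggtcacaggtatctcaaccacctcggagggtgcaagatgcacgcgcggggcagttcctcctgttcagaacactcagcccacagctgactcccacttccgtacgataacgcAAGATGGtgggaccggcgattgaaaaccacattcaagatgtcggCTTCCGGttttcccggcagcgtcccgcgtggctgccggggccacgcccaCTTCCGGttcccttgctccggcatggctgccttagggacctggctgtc
Mrpl53: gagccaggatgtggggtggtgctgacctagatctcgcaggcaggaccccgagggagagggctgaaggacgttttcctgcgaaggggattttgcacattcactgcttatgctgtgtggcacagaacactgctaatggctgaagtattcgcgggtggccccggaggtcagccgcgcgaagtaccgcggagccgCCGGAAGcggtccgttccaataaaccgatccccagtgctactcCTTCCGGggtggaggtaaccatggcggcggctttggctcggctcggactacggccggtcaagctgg
Mrpl40: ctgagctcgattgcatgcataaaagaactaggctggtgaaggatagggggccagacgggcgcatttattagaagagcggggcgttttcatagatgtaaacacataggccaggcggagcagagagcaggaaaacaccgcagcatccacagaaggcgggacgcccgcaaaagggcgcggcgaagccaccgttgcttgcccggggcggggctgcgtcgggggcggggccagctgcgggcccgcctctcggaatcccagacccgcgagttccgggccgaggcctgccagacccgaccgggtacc
Mrps12 has a YY1 element whose first base lies 198 bases before the start and an ETS element from base 2 after it. In Mrpl52 there are ETS elements at -47 and 3 and a YY1 element at -91, in Mrpl53 ETS elements at -59 and -16, and in Mrpl18 an ETS element at -240. The Mrpl40 window holds none of the 3.

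All 74 members passed the filter on low counts in each comparison, and the lowest count of any member in any mouse was 36. RPM, the reads of a gene scaled to a common library total, was the deposited unit of level. Summed over members it was 0.155% to 0.174% of a library. Library totals ran from 11727151 to 17178044 reads in females and from 9308206 to 10844280 in males, so the sexes did not overlap in depth and the labels give no sequencing run; sex and any difference between runs cannot be told apart. On the first principal component of the genes above a floor on mean level (28.9% of their variance) females lay at -17.6 to -1.26. Males lay at 6.75 to 25.9, except HFD male 2 at -2.42. Markers of cortical glutamatergic neurons, all 7 detected, summed to 1430 to 2240 RPM, and olfactory bulb markers were present as well, at 30.7 to 488 RPM. The labels name the tissue brain and the extraction notes cortex.

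Divided by exon length, which allows levels to be compared between genes, the members covered a 11.8-fold range in the small subunit (3.12 to 36.8 RPM per kb, median 11.7) and a 12.9-fold range in the large subunit (3.05 to 39.3, median 15.8). Highest in the small subunit were Mrps21 (36.8 RPM per kb), Mrps18a (31.2) and Mrps34 (22.0), and lowest were Mrps35 (3.12), Mrps5 (3.84) and Mrps18b (4.93). In the large subunit Mrpl41 was highest at 39.3 RPM per kb, followed by Mrpl20 (36.6) and Mrpl42 (35.8), and Mrpl47 (3.05), Mrpl17 (3.31) and Mrpl32 (3.68) were lowest. The exon lengths are those of the union of annotated exons (GENCODE vM21, GRCm38) and long rarely used exons lower the value, so the order is approximate. Between mice the members varied little. Their biological coefficient of variation, the spread beyond counting error within groups, had a median of 6.52% against 8.91% for all genes tested, with 6.88% in the small and 6.27% in the large subunit. Over all 19 mice the coefficient of variation of RPM went from 4.52% for Mrpl37 to 23.2% for Mrpl55, with Mrpl52 (21.5%) and Mrpl53 (17.7%) next to it.

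**Figure D1:**
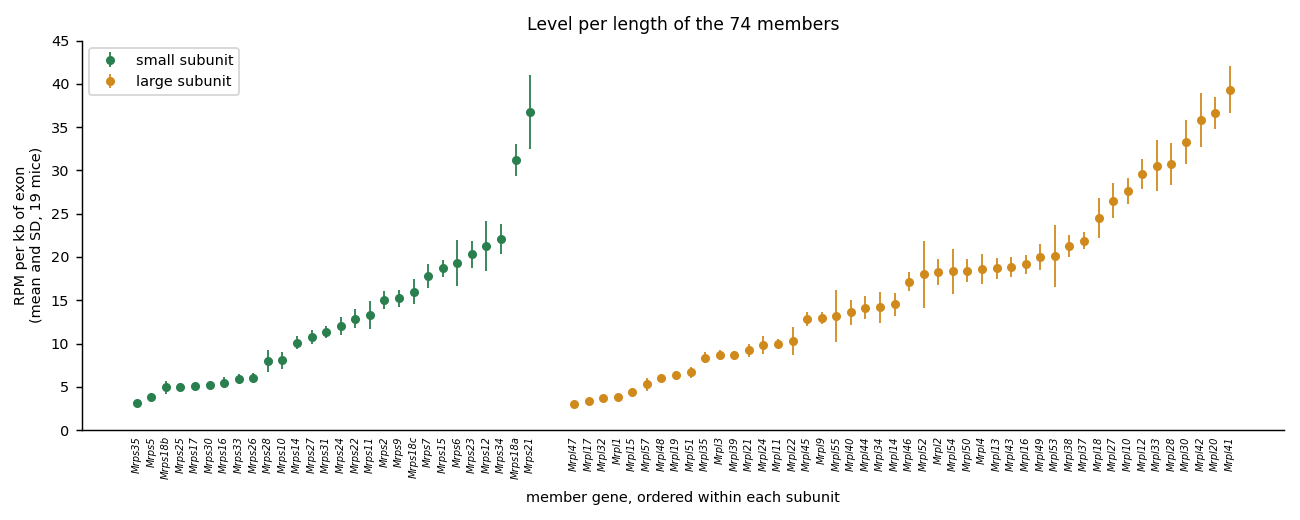
Mean RPM per kb of exon of each of the 74 members over 19 mice (vertical axis), with the SD between mice as bars, ordered within the small (green) and large (orange) subunit. Levels run from 3.05 for Mrpl47 to 39.3 for Mrpl41, and most SDs are small beside that range.

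With both sexes together and sex in the model, few members differed between the diets. Mrpl40, Mrpl42 and Mrpl50 of the large subunit were higher on HFD at an unadjusted p under 0.05, and Mrps25 of the small subunit was lower. That is 3 of 74 higher where 5.44% of the 14834 genes tested were, and 1 of 74 lower where 6.99% were. With edgeR's quasi-likelihood test 0 members and 0% of all genes passed an adjusted p of 0.05 in either direction, and 0 members did with DESeq2, which called 0.418% of genes higher and 0.418% lower, or with limma-voom, which called 0%. The median log2 fold change was -0.02 in the small subunit (7 of 28 above 0), -0.01 in the large (21 of 46 above 0) and -0.003 over all genes. Over the members the 95% interval of the log2 fold change reached a median of 0.11 to either side, the lowest bound was -0.33 (Mrpl52) and the highest 0.38 (Mrpl55).

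Mrpl40 had 16.2, 17.2 and 19.1 RPM as lowest, median and highest of the ND females and 22.4, 16.6, 18.6, 20.5 and 19.5 RPM in the HFD females. In males it had 16.2, 14.4, 16.6 and 17.5 RPM on ND and 19.6, 16.5, 19.4 and 17.1 on HFD. The HFD values lay higher on the whole, with HFD female 1 at the top, but the diets overlapped in both sexes. The log2 fold change was 0.19 (SE 0.06, 1.14-fold, adjusted p = 0.176). Mrps25 had 30.0, 32.0 and 36.0 RPM as lowest, median and highest of the ND females and 31.3, 27.5, 27.3, 29.7 and 30.6 RPM in the HFD females. In males it had 33.1, 31.7, 28.4 and 30.7 RPM on ND and 29.9, 31.4, 24.9 and 28.7 on HFD. Here the HFD mice tended to the low side, with overlap in both sexes, and the log2 fold change was -0.12 (SE 0.05, adjusted p = 0.278). Its annotated exons overlap those of Nr2c2 over 3533 bases, and no strand setting of the counting is stated, so reads of the 2 genes may not be told apart. Mrpl42 differed by 0.12 (SE 0.05, adjusted p = 0.310) and Mrpl50 by 0.10 (SE 0.05, adjusted p = 0.341). The difference of Mrpl50 missed an unadjusted p of 0.05 without ND female 4 (0.09), ND female 6 (0.10), HFD female 4 (0.09), ND male 1 (0.10) or HFD male 1 (0.10). Without ND female 1, 5 members were higher, and without ND male 1 or ND male 3, 3 and 2 were lower. Of the 11 marker lists, 7 had members called between the diets in the same fit. These were microglia (5 of 6 higher on HFD, summed level 353 to 539 RPM on ND and 369 to 624 on HFD), erythrocytes (4 of 4 higher, 0.767 to 18.1 and 3.65 to 88.2 RPM) and endothelium (2 of 5 higher, 158 to 209 and 159 to 197 RPM). Olfactory bulb (6 of 6 lower, 34.5 to 488 and 30.7 to 361 RPM) and inhibitory neurons (2 of 6 lower, 1020 to 2080 and 817 to 1410 RPM) went the other way, 1 of 6 oligodendrocyte markers was higher, and of 6 astrocyte markers 1 was higher and 1 lower. Their part in the members' differences was not tested.

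Within females, 3 of 74 members were higher on HFD, where 3.92% of the 14756 genes tested were, and 4 were lower, where 4.5% were. Higher were Mrpl40 (log2 fold change 0.18, SE 0.08, adjusted p = 0.568), Mrpl45, which holds the ribosome at the inner membrane (0.12, SE 0.05, adjusted p = 0.586), and Mrpl50 (0.13, SE 0.06, adjusted p = 0.587). Lower were Mrpl53 (-0.23, SE 0.08, adjusted p = 0.49), Mrps25 (-0.14, SE 0.06, adjusted p = 0.527), Mrps26 (-0.15, SE 0.06, adjusted p = 0.579) and Mrpl54 (-0.17, SE 0.08, adjusted p = 0.591). All 7 are without a bacterial counterpart, a class of 30 of the 74 members that was written down after the values had been seen. Adjusted p was 0.49 or more for every member, with 0% of genes called by edgeR in females, and 0 members passed with DESeq2 (0.108% of genes higher and 0.217% lower) or limma-voom (0%). In 0 members did the HFD females lie wholly above or below the ND females, as they did in 0.264% and 0.393% of all genes. Only the difference of Mrpl53 kept its call without each of the 11 females in turn (-0.29 to -0.19). The count of higher members was 1 without ND female 3 or HFD female 3 and 0 without HFD female 4 or ND female 6. The count of lower members was 1 without HFD female 3 and 2 without HFD female 1, 2 or 5 or ND female 3 or 6.

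Within males, Mrpl2, the counterpart of a protein at the peptidyl transferase centre of bacteria (0.19, SE 0.08, adjusted p = 0.571), and Mrpl53 (0.28, SE 0.12, adjusted p = 0.591) were higher on HFD, 2 of 74 where 4.2% of the 14293 genes tested were. By edgeR 0 members were lower at an unadjusted p under 0.05, where 4.2% of genes were, and no member passed the adjusted threshold with edgeR, DESeq2 or limma-voom (0%, 0.021% and 0% of genes higher, 0%, 0.014% and 0% lower). The smallest p of the small subunit was that of Mrps2 (-0.14, SE 0.08, adjusted p = 0.636), then Mrps23 (-0.10, SE 0.07, adjusted p = 0.673) and Mrps24 (0.15, SE 0.10, adjusted p = 0.678). In RPM all 4 HFD males lay below all 4 ND males for Mrpl18 and Mrps23 (adjusted p = 0.651 and adjusted p = 0.673). That is 2 of 74 where 3.39% of all genes did, and in 0 members they lay above, where 1.53% did. Scaled by library totals, as RPM is, the median log2 fold change over all genes in males was -0.035, against -0.001 in the fit above. The count of higher members was 0 without HFD male 1, 1 without HFD male 2 or ND male 1 and 4 without HFD male 4, and 1 member was lower without ND male 4. Olfactory bulb markers summed to 202 to 488 RPM in ND males and 35.2 to 361 RPM in HFD males, and their part in the male values was not tested.

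The diet difference itself was compared between the sexes as an interaction, coded as the difference in males minus that in females. At an unadjusted p under 0.05 it was above 0 in 3 members (Mrpl53, Mrps26 and Mrpl38), where 2.83% of the 14934 genes tested were, and below 0 in Mrps2 alone, where 2.38% were. No gene passed an adjusted p of 0.05 with edgeR (0% in both directions), and none did with DESeq2 or limma-voom. Mrpl53, a large subunit protein without a bacterial counterpart, had the smallest p. In RPM it had 13.3, 17.4 and 17.7 as lowest, median and highest of the ND females and 12.4, 13.7, 13.7, 15.3 and 14.9 in the HFD females. ND males had 9.81, 11.8, 9.16 and 13.3 RPM and HFD males 13.3, 12.5, 13.9 and 12.3. ND females were thus highest but for ND female 1, ND males lowest but for ND male 4, and the HFD mice of both sexes lay between. The interaction was 0.51 on the log2 scale (SE 0.15, adjusted p = 0.903), and it kept its side of the unadjusted threshold without each of the 19 mice (0.44 to 0.61). The exons of Mrpl53, 695 bases long, overlap those of Ccdc142os and Gm42688 over 710 bases summed over both genes. Its reads are thus not certain to be its own, which holds for each of its differences given here.

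Mrps2, the counterpart of the bacterial protein of the same number, went the other way between the sexes. ND females had 29.5, 31.1 and 32.6 RPM as lowest, median and highest, and HFD females 29.9, 33.3, 33.2, 33.9 and 33.1. ND males had 34.2, 31.0, 34.5 and 29.2 RPM and HFD males 27.5, 29.5, 27.6 and 29.9. On HFD 4 of 5 females lay above every ND female, and HFD males lay low, with overlap through ND male 4 (interaction -0.21, SE 0.08, adjusted p = 0.903). Neither sex alone reached an unadjusted p of 0.05 (0.08, SE 0.05, adjusted p = 0.703 in females, and -0.14 as given above in males). For Mrps26, a small subunit protein without a bacterial counterpart, the interaction was 0.25 (SE 0.11, adjusted p = 0.903), and for Mrpl38, a part of the central protuberance, 0.16 (SE 0.07, adjusted p = 0.903). The calls of Mrps26 and Mrpl38 were lost without 1 mouse in 11 and 13 of the 19 cases (values 0.20 to 0.32 and 0.14 to 0.19), and 1 of the 3 members above 0 was left without HFD female 1, HFD male 2, ND male 4 or ND female 6. Members below 0 numbered 4 without HFD female 1, 3 without HFD male 1, ND male 1 or ND female 5 and 2 without ND female 3, ND female 6 or HFD female 5.

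**Figure D2:**
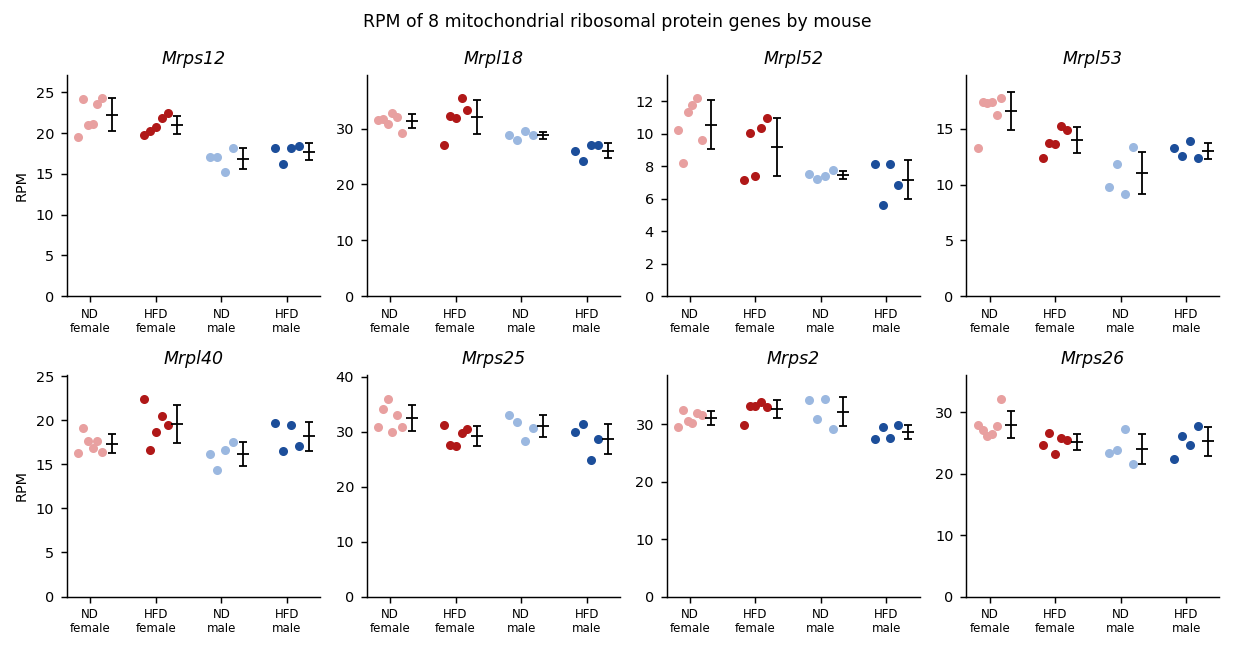
RPM (vertical axis, from 0) of 8 members in each mouse (points) of the 4 groups, with the group mean and SD in black. All 11 females lie above all 8 males for Mrps12, and for Mrpl53 the ND females are high and the ND males low, with the HFD mice of both sexes between.

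Between the sexes the members differed more often than between the diets. With diet in the model, 20 of 74 were higher in females at an unadjusted p under 0.05, where 14.1% of the 14834 genes tested were, and 1 was lower, where 12.5% were. In the large subunit 15 of 46 were higher and 0 lower (median log2 fold change 0.06), and in the small subunit 5 of 28 were higher and 1 lower (median 0.05), beside a median of 0.002 over all genes. At an adjusted p under 0.05, 13 members were higher, 9 large and 4 small, and 0 lower, where 6.28% and 4.98% of genes were. Of members with a bacterial counterpart 11 of 44 were higher, and of those without one 9 of 30.

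Mrps12, whose bacterial counterpart sits at the decoding site, had the smallest p. ND females had 19.5, 22.3 and 24.3 RPM as lowest, median and highest, and HFD females 19.8, 20.3, 20.8, 21.8 and 22.5. ND males had 17.04, 17.1, 15.2 and 18.2 RPM and HFD males 18.2, 16.2, 18.2 and 18.4. All 11 females were above the highest male, which held for 0.378% of all genes (0.195% the other way) and for no other member. The difference was 1.26-fold (log2 0.33, SE 0.05, adjusted p = 0.000684), while its diet difference was -0.01 (SE 0.05, adjusted p = 0.966).

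Mrpl52, a large subunit protein without a bacterial counterpart, differed most in size. ND females had 8.19, 10.8 and 12.2 RPM as lowest, median and highest, and HFD females 7.17, 10.1, 7.38, 10.3 and 10.98. ND males had 7.53, 7.18, 7.40 and 7.74 RPM and HFD males 8.12, 5.63, 8.10 and 6.86. Of the females 9 of 11 were above the highest male, with HFD females 1 and 3 among the males (log2 0.44, SE 0.10, 1.36-fold, adjusted p = 0.00668). Mrpl18, the counterpart of the bacterial protein of that number, had 29.3, 31.5 and 32.7 RPM as lowest, median and highest of the ND females and 27.1, 32.2, 31.8, 35.4 and 33.3 in the HFD females. ND males had 28.8, 28.0, 29.5 and 28.9 RPM and HFD males 25.9, 24.2, 27.1 and 27.0. HFD female 1 and ND female 6 were the 2 females not above every male, and the difference was 0.21 (SE 0.05, adjusted p = 0.00638).

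Mrpl53 was higher in females by 0.36 (SE 0.09, adjusted p = 0.0152), Mrpl4, which reaches into the peptide tunnel in bacteria, by 0.18 (SE 0.05, adjusted p = 0.0157), and Mrpl28 by 0.16 (SE 0.04, adjusted p = 0.0202). Mrpl34 differed by 0.25 (SE 0.07, adjusted p = 0.0217) and Mrps34, a small subunit protein without a bacterial counterpart, by 0.16 (SE 0.05, adjusted p = 0.0292). The other 12 differed by 0.08 to 0.25, with Mrps11, Mrpl51, Mrpl57, Mrps21 and Mrpl54 among those past the adjusted threshold (0.0311 to 0.0473). Mrps17, the counterpart of a protein of the bacterial small subunit, was the 1 member lower in females (-0.11, SE 0.04, adjusted p = 0.0645). With every library thinned to the smallest total, 16 were higher and 2 lower, where 13.4% and 11.8% of genes were. Taking 1 mouse away left 19 to 23 members higher and 1 or 2 lower, the latter without ND female 1, 2, 3 or 5, HFD female 2, ND male 2 or HFD male 2, and 22 were higher without HFD male 2. The 13 members past the adjusted threshold became 7 to 13, the fewest being 7 without ND male 1 and 8 without HFD male 1 or HFD male 4. Over all genes 932 were higher in the main fit, and 663, 674 and 614 in these 3 fits. Mrps17 passed the adjusted threshold as lower in females without ND female 2 or ND male 4, where 705 and 530 genes were lower, against 738 in the main fit.

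The sex difference was also fitted in each diet alone, after the data were seen. At an unadjusted p under 0.05, 15 members were higher in females and 0 lower in ND mice, where 9.59% and 7.51% of genes were. In HFD mice 9 were higher and 1 lower (Mrps17, -0.15), where 8.17% and 8.22% were. At an adjusted p under 0.05, Mrpl52, Mrpl53, Mrpl57 and Mrps12 were higher in ND mice, 4 of 74 where 1.84% of genes were. No member was lower there, where 1.15% of genes were. In HFD mice 0 members passed it, where 0.136% of genes were higher and 0.129% lower. The fits held 10 and 9 mice, and the test of the difference between them is the interaction given above. Mrps12 (0.42 on ND and 0.23 on HFD) and Mrpl18 (0.15 and 0.28) were higher in both at the unadjusted threshold, 2 of 74 where 3.14% of all genes were. Mrpl53 differed by 0.61 on ND, past the unadjusted threshold, and by 0.09 on HFD, short of it. That is the interaction given above seen from the other side. Of the 74 members 39 were above 0 in both diets and 11 below 0, where 34.1% and 32.2% of all genes were.

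**Figure D3:**
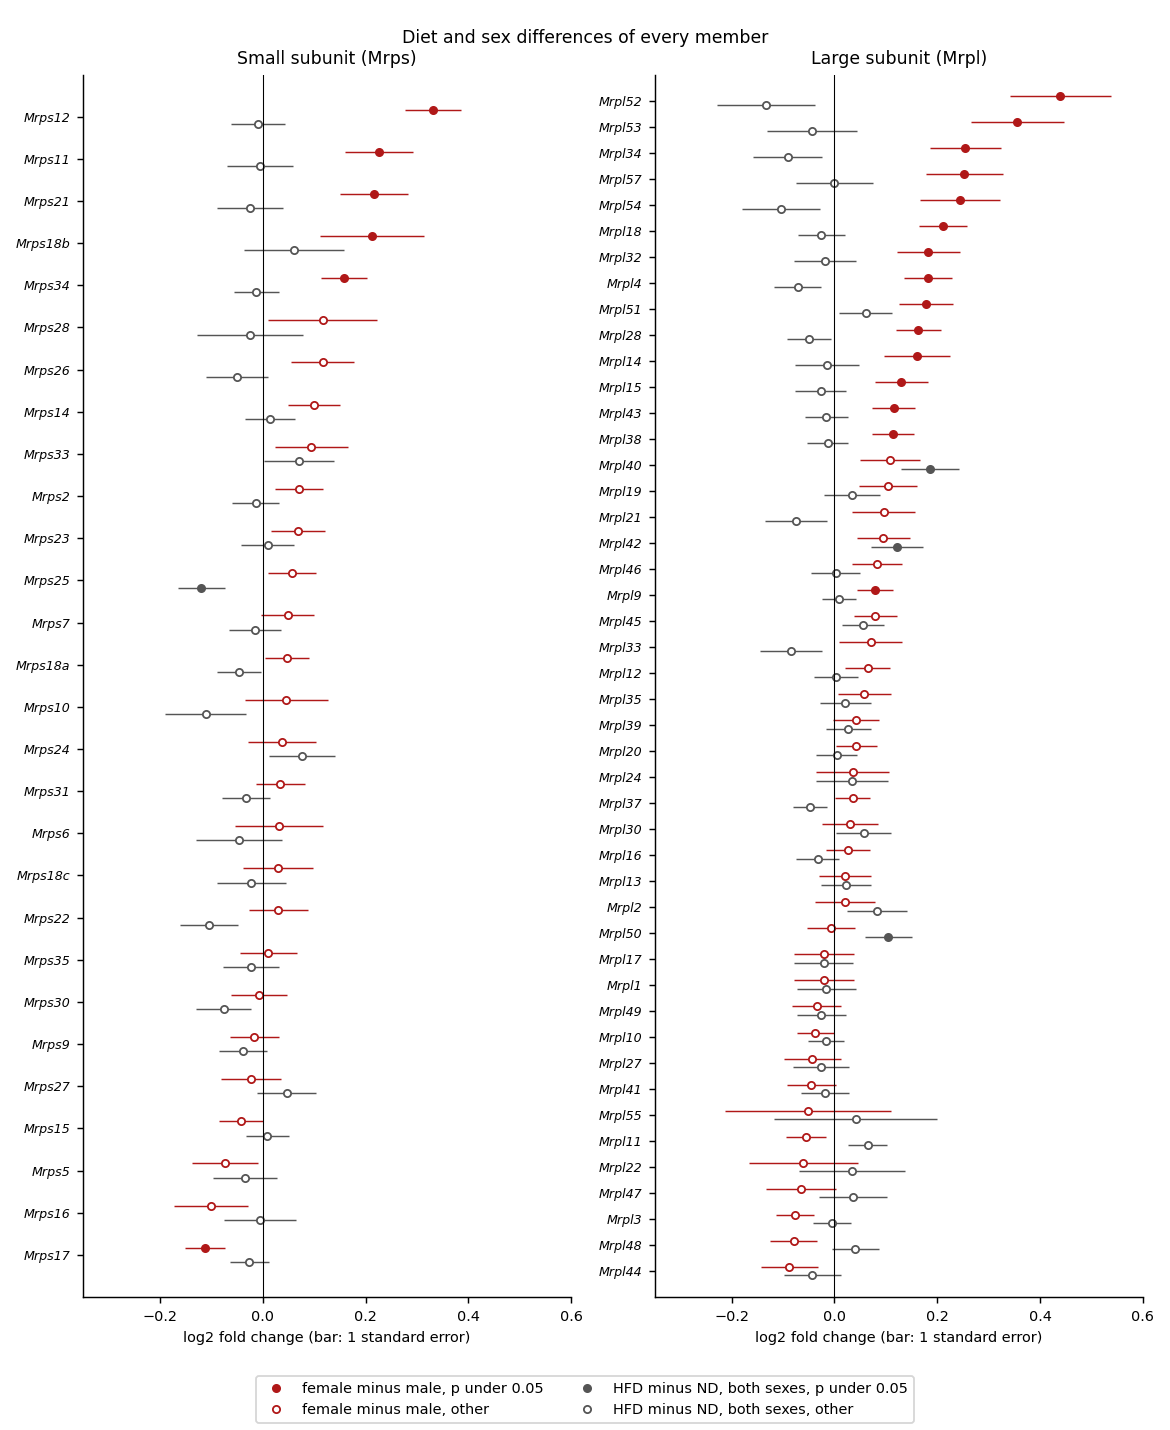
Log2 fold change (horizontal axis, bars of 1 SE) of every member between the sexes (red) and between the diets in both sexes (grey), small subunit left and large right, in order of the sex difference. Filled points passed an unadjusted p of 0.05, which are 21 for sex and 4 for diet.

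Per mouse, the subunits were summarised without a test. The median over its 46 members of the deviation from each member's own mean (log2 CPM) was 0.033 ± 0.020 (SD, n = 6) in ND females, 0.035 ± 0.033 (n = 5) in HFD females, -0.042 ± 0.040 (n = 4) in ND males and -0.027 ± 0.019 (n = 4) in HFD males. Every female (0.00205 or more) was above every male (-0.00111 or less). The small subunit gave 0.026 ± 0.028, 0.019 ± 0.054, 0.00138 ± 0.055 and -0.053 ± 0.019 in that order, and there the females overlapped the males of both diets.

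**Figure D4:**
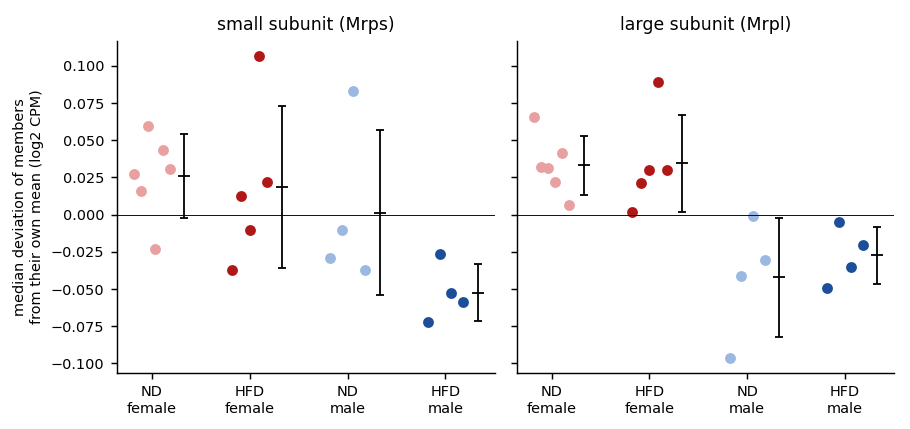
Median deviation of the small (left) and large (right) subunit members from their own mean over mice (log2 CPM, vertical axis), 1 point a mouse, with the group mean and SD in black. Females lie above 0 and males below 0 for the large subunit, with ND male 3 at -0.00111 and HFD female 1 at 0.00205 closest.

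The sex difference varied with the GC content and length of transcripts across all genes. Among genes of over 55% GC the median log2 fold change was 0.07 and 27.9% were higher in females, and 10 of the 16 members of that class were (median 0.16). Of genes with exons under 1 kb 26.4% were higher (median 0.06), and of such members 8 of 20 were. The 20 members higher in females had a median GC of 54.5% and an exon length of 1073.5 bases, and the other 54 had 49.4% and 1506.5 bases. With offsets per library for length and GC, a fit added after the data were seen, 12 members were higher and 2 lower, where 11.4% and 13.6% of genes were. Mrpl18, Mrpl51 and Mrps12 passed the adjusted threshold, 3 of 74 higher where 3.69% of genes were, a share near that of all genes, and 0 lower where 5.12% were. Under these offsets Mrps34 came to -0.01 (adjusted p = 0.964), Mrpl28 to 0.05 and Mrpl4 to 0.05. Of members with an ETS element in the promoter 10 of 25 were higher in females, and of those without 5 of 40. For the NRF1 element it was 6 of 16 and 9 of 49, and for YY1 4 of 12 and 11 of 53. Over all genes tested, with or without an element, 14.1% were higher, and the share among all genes with an element was not counted. The 9 members without a window are not in these counts, Mrpl4, Mrpl15, Mrpl38, Mrpl54 and Mrps34 among them, which were also higher in females. Whether the elements bear on the sex difference was not tested. Of the 11 marker lists, 6 had members called between the sexes. These were olfactory bulb (6 of 6 lower in females, 30.7 to 146 RPM against 35.2 to 488 in males), microglia (5 of 6 higher, 410 to 624 against 353 to 530), striatum (4 of 5 higher, 301 to 1570 against 179 to 919) and oligodendrocytes (4 of 6 higher, 2720 to 5590 against 2540 to 3550). Of 6 astrocyte markers 1 was higher and 3 lower (4590 to 5690 against 5070 to 5630), and of 6 inhibitory neuron markers 2 were higher and 1 lower (817 to 1720 against 853 to 2080). Their part in the members' difference was not tested, and in bulk tissue fewer cells of a type and less RNA per cell cannot be told apart.

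**Figure D5:**
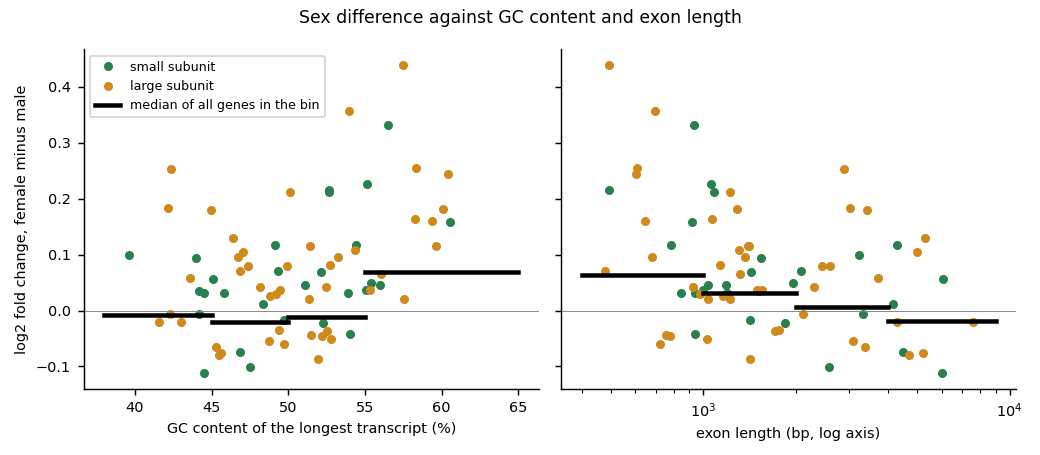
Log2 fold change between the sexes (vertical axis, female minus male) of each member against the GC content of its longest transcript (left) and its exon length on a log axis (right). Black lines are medians of all genes in the class, at 0.07 over 55% GC and 0.06 under 1 kb, and 10 of the 16 members over 55% GC were called higher in females.

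Genes that work with the mitochondrial ribosome were called in both directions between the sexes at an unadjusted p under 0.05. Over all genes tested 14.1% were higher in females and 12.5% lower. Of 6 ribosomal proteins with other symbols, Aurkaip1 (0.12, SE 0.04, adjusted p = 0.0504) and Gadd45gip1 (0.18, SE 0.07, adjusted p = 0.107) were higher in females and Dap3, which binds GTP in the small subunit, was lower (-0.06, SE 0.03, adjusted p = 0.17). Of 25 genes for ribosome assembly and rRNA modification 0 were higher and 3 lower. These were the helicase Dhx30 (-0.11, SE 0.03, adjusted p = 0.0222), Ngrn (-0.15, SE 0.04, adjusted p = 0.0151) and the methyltransferase Nsun4 (-0.16, SE 0.07, adjusted p = 0.148). Of 15 translation factors the elongation factor Gfm1 was higher (0.11, SE 0.04, adjusted p = 0.0608). The insertase Oxa1l (-0.18, SE 0.05, adjusted p = 0.0136) and the RNA-binding Slirp (-0.17, SE 0.05, adjusted p = 0.0384) were lower. Of 15 genes of mitochondrial transcription and biogenesis, the nuclear receptor Esrra (0.28, SE 0.07, adjusted p = 0.00976) and the RNA polymerase Polrmt (0.19, SE 0.05, adjusted p = 0.0181) were higher. The coactivator Ppargc1a was lower (-0.22, SE 0.06, adjusted p = 0.0188). The 84 cytosolic ribosomal proteins gave 23 higher (27.4%) and 9 lower (10.7%) in females. The 76 nuclear subunits of oxidative phosphorylation gave 30 (39.5%) and 7 (9.21%). The 74 members gave 27% and 1.35%, so their share of higher genes was not above that of either list.

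Diet in both sexes called 0 of the 6 and 0 of the 25. Among the translation factors the release factor Mtrf1l was lower on HFD (-0.31, SE 0.10, adjusted p = 0.207). Of the biogenesis genes Tfb2m, a transcription factor of mitochondrial DNA, was higher (0.19, SE 0.07, adjusted p = 0.267) and Ppargc1a lower (-0.15, SE 0.06, adjusted p = 0.272). Cytosolic ribosomal proteins gave 5 higher and 2 lower of 84 (5.95% and 2.38%) and oxidative phosphorylation subunits 1 and 5 of 76 (1.32% and 6.58%). Over all genes tested 5.44% were higher on HFD and 6.99% lower.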

How the data were processed

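RNA of the cortex of 19 APP23 mice was measured as mRNA libraries, 1 a mouse, grouped by the sex and diet in the labels, which give fewer HFD males than the study's text. The authors aligned reads with Subread (1.4.0 in the submitters' notes) to mm9, counted them per gene with featureCounts and deposited the count of each gene. The authors also deposited the RPM of each gene, which the counts and recovered library totals gave back within 4.8e-06. The table lists genes that passed a filter on low expression, 99.2% of each total, and neither a strand setting nor a sequencing run is given in the sources used here. The members and gene lists were chosen with earlier results of these data known.

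Counts were tested on the whole table in R 4.3.3 by the quasi-likelihood F-test from edgeR 4.0.16 (TMM, filterByExpr with a minimum count of 10 and a minimum total of 15, robust dispersions with statmod 1.5.0) and adjusted by Benjamini-Hochberg over all genes tested. The standard error is the log2 fold change divided by the root of F, and intervals took 16 residual degrees of freedom. Neither need match the p-value of the test. For Mrpl39 the diet difference in both sexes was 0.027 (SE 0.044), while the p-value of the quasi-likelihood test was 0.683, larger than that ratio gives. Library totals of 9308206 to 17178044 reads and a common biological coefficient of variation of 10.1% to 11.1% set the precision. The fits for diet in both sexes and for sex were checked on simulated data. No library was a copy of another, since a chi-square of counts over its degrees of freedom was 4.52 to 18.3 in the 37 pairs of the same group. P-values measure the spread between mice. Log2 CPM used a prior count of 2. Exon length and GC content, known for 96.2% of genes, came from GENCODE vM21 and were not those of the authors' annotation. Members named are those with an unadjusted p under 0.05, at most 8 in each direction of a comparison, or the 3 of smallest p of a subunit where none passed, with Mrpl53 and the 3 highest and 3 lowest levels per kb. Other members and genes of lists were named after their values were seen.

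Alternatives were RLE factors, library totals, no filter, DESeq2 1.42.0, limma-voom (limma 3.58.1), a 4-group fit, no term for sex, thinned counts, leaving out each mouse or the 2 mice whose identifiers begin with A, and, after the data were seen, offsets for length and GC (loess span 0.3) and each diet alone. Figures used matplotlib 3.10.9, pandas 2.3.3 and Python 3.11.15, and labels were read with jsonlite 2.0.0.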

Additional observations from a re-analysis of the deposited data

Results flagged for a closer look

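Of 84 groups of 4 to 6 mice checked for a mouse far from the others of its group, 5 held one, where chance gives about 1 in 20. Mrpl53 in ND female 1 (13.3 RPM, the others 16.2 to 17.7) had a gap of 0.669 of the group's range. Mrps26 in ND female 6 (32.3 RPM, the others 26.2 to 28.0) had a gap of 0.701, and Mrps23 in ND female 4 (23.4 RPM, the others 28.8 to 30.7) one of 0.744. Mrps2 in HFD female 1 (29.9 RPM, the others 33.1 to 33.9) had a gap of 0.801 and Mrps12 in HFD male 2 (16.2 RPM, the others 18.2 to 18.4) one of 0.882.

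The diet difference differed between males and females by the interaction test at an unadjusted p under 0.05 in 4 members. These were Mrpl53 (0.51), Mrps26 (0.249), Mrpl38 (0.163) and Mrps2 (-0.214, lower in males), with an adjusted p of 0.903 for each in edgeR's test.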

How the results depend on the processing

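Leaving out 1 mouse at a time moved the members called between the diets in both sexes over 2 to 5 higher and 1 to 3 lower, in females over 0 to 4 and 1 to 5, in males over 0 to 4 and 0 to 1, for the interaction over 1 to 3 and 1 to 4, and between the sexes over 19 to 23 and 1 to 2. Scaling by library totals gave 1 higher in females, 0 higher and 1 lower in males, and 1 higher and 3 lower for the interaction. The median log2 fold change over all genes was then -0.004, -0.035 and -0.031 in that order, against 0.002, -0.001 and -0.003 in the main fits. DESeq2 gave 1 higher in females and 0 in males, where 3.54% and 3.54% of genes were. The 4-group fit gave 2 lower in females and 1 lower in males. The fit without the mice whose identifiers begin with A gave 0 higher in males and 2 lower in females against males. RLE factors and thinned counts each gave 2 members lower in females than in males, where 11.8% of genes were with thinned counts. The offsets for length and GC gave 2 lower on HFD in both sexes (6.74% of genes), 0 higher in females (3.71%) and 0 lower for the interaction (1.95%). Between the sexes they gave 12 higher and 2 lower (11.4% and 13.6% of genes), and under them Mrps34 came to -0.0054 in place of 0.16. ND mice alone gave 0 members lower in females than in males, where 7.51% of genes were, and HFD mice alone 9 higher, where 8.17% were. At the unadjusted threshold the share of all genes is not given here for library totals, RLE factors, the 4-group fit or fits that leave out mice. Counts from those fits are therefore not read as a result about the members. The cause of these shifts was not tested. Of 713 values of named members under an alternative, 594 kept their direction and side of the threshold, 115 fell short of it, 3 came past it and 1 reversed. No alternative to a diet or interaction fit, leaving out 1 mouse included, called a member at an adjusted p under 0.05, while over all genes these alternatives called at most 62 higher and 62 lower in both sexes (DESeq2), 16 and 32 in females, 3 and 2 in males and 0 for the interaction. Between the sexes 13 members passed it as higher in females with DESeq2, where 6.98% of genes did, and 12 with limma-voom, where 5.8% did. Thinned counts gave 9, where 5.41% of genes passed. Without the mice whose identifiers begin with A 7 passed, and over all genes 579 did, against 932 in the main fit. Leaving out 1 mouse gave 7 to 13 members higher and 0 or 1 lower, where 614 to 993 genes were higher and 468 to 867 lower. No paired analysis was possible because the labels give no replicate numbers that groups share.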
